A study of Mus musculus with 18 samples.

Results

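Malat1 and 5 other long noncoding RNAs of the brain, Neat1, Meg3, Miat, Snhg11 and Rian, were followed over the 6 arrays of a study of acute lead exposure in mouse pups. The genes were taken by symbol: every probe set annotated to exactly 1 of the 6 symbols belongs to the group, which gave 28 probe sets for 6 of the 18194 genes measured. Malat1 holds 7 of them, Meg3 11, Rian 4, and Neat1, Miat and Snhg11 2 each. All 6 genes are typed as lncRNA in the mouse gene table. Malat1 was chosen by its low values in the Mt-KO and heterozygous saline pools, so those values are a description and carry no test, while the other 5 genes were set beside it for comparison.

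The pups were homozygous (-/-, Mt-KO), heterozygous (+/-) or wild-type (+/+) for a metallothionein knockout. Metallothioneins are small proteins, rich in cysteine, that hold zinc and copper and can take up toxic metals. All genotypes came from brother-sister crosses of a line backcrossed to C57BL/6J for at least 7 generations, so the wild-type pups share that history. Pups received lead acetate (50 mg/kg) or, as weight-matched controls, saline, 2 injections a day given 4 h apart on postnatal days 7 and 8, and whole brains were taken at postnatal day 8, 6 h after the final dose. Each pool held RNA of 5 pups, labelled male and female (the Mt-KO saline array goes against this, as given below), with 1 pool for each of the 6 combinations (Mt-KO lead, Mt-KO saline, heterozygous lead, heterozygous saline, wild-type lead and wild-type saline), and was hybridised to 1 Affymetrix mouse expression array. No combination was repeated, so a difference between 2 pools has no replicate check. The labels do not state which metallothionein genes or exons were altered. In whole-brain pools, fewer cells of a type and less RNA per cell cannot be told apart.

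Malat1 is an abundant nuclear RNA that gathers in nuclear speckles, the bodies where splicing factors such as the SR proteins are stored, and in cultured neurons it has been studied for its part in synapse formation. Neat1 is the scaffold of a neighbouring kind of body, the paraspeckle. Meg3 and Rian are transcribed from the maternal chromosome of the imprinted Dlk1-Dio3 domain and are strong in neurons, Miat (also called Gomafu) is a neuronal nuclear RNA that binds splicing factors, and Snhg11 is a small nucleolar RNA host gene of neurons. In the GRCm38.p6 assembly Malat1 lies on chromosome 19 at 5795690 to 5802672 (minus strand). Neat1 lies on the same chromosome at 5824708 to 5845480, with 22035 bases between them. Meg3 lies on chromosome 12 at 109540996 to 109571729, and Rian starts 32215 bases further on, at 109603945 to 109661716. Miat lies on chromosome 5 at 112213228 to 112228948 and Snhg11 on chromosome 2 at 158375713 to 158386474.

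RefSeq promoter windows (GRCm38.p6, 250 bases before to 50 after a transcript start) were at hand for 5 of the 6 genes, all but Neat1. Because the study concerns a metal, they were searched on both strands for the cores of the metal response element, TGCACNC and TGCGCNC, and for the cAMP response element TGACGTCA, which does not overlap them. The windows of Malat1 (chr19:5802623-5802922, minus strand) and of the first Meg3 start (chr12:109540746-109541045, plus strand) are shown, since these genes have the most probe sets below. Capitals mark the matches.
Malat1: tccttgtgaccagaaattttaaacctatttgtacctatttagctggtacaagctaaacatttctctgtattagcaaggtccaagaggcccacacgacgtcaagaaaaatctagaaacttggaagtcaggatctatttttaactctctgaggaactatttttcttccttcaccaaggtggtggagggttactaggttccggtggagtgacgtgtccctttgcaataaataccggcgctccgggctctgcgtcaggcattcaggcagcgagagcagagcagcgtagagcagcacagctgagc
Meg3: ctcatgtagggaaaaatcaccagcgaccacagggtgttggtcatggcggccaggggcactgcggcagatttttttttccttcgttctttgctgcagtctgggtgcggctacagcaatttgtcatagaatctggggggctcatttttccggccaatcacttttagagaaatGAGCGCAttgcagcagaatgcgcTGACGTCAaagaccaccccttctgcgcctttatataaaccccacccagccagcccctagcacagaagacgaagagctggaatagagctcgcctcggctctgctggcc
The Malat1 window holds none of the 3 motifs. The Meg3 window holds 1 TGCGCNC match, on the opposite strand 80 bases before the start, and 1 TGACGTCA match 57 bases before it. The Snhg11 window holds 2 TGCGCNC matches, the Miat window 1 TGCACNC match, and the windows of Rian and of the second Meg3 start none. Of 32851 promoter windows, 12.6% hold TGCACNC, 15.4% TGCGCNC and 1.79% TGACGTCA.

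Values are deposited RMA values (log2 probe set intensities), and 27 of the 28 probe sets were bright enough to be tested, all but 1427285_s_at of Malat1. Differences between 2 pools are given relative to the median of the 20975 probe sets tested, and 1.5-fold (0.585 on the log2 scale) was used as the limit. The wild-type saline pool stands in all comparisons of genotype after saline and in the lead comparison of wild-type pups, so these share an array. That array had a Gapdh 3' minus 5' difference of 1.19, against 0.54 to 0.82 in the other 5, and the widest spread of values (SD 1.93, against 1.83 to 1.91). Among the other control genes, its Actb difference was also the highest (0.59, against 0.37 to 0.48). Those of Tfrc (0.91, against 0.69 to 1.01) and Pcx (1.33, against 1.18 to 1.51) lay within the range of the other arrays. Mt1, a metallothionein gene and a check of the genotype labels, read 11.71 in Mt-KO lead and 11.68 in Mt-KO saline, 12.87 in heterozygous lead and 12.45 in heterozygous saline, against 13.30 in wild-type lead and 13.17 in wild-type saline. Sex-linked RNA set both Mt-KO pools apart. The Y-linked Eif2s3y read 11.16 in Mt-KO lead and 6.50 in Mt-KO saline, against 9.45 to 10.45 in the 4 other pools, and Xist, of the inactive X chromosome, read 10.23 in Mt-KO lead and 12.75 in Mt-KO saline, against 11.91 to 12.20. The Mt-KO saline value of Eif2s3y, under the 8.92 used as the brightness limit, goes against the label of pups of both sexes for that pool. Differences that rest on Mt-KO saline or on Mt-KO lead therefore carry a difference in sex-linked RNA too, and its part in them was not tested. The 5 neuron markers were all detected, and their summed intensity ran from 80900 in Mt-KO saline to 113000 in wild-type saline. Such sums of linear intensities weigh the brightest probe sets most, and bright probe sets as a whole lay lower in Mt-KO saline, as given below. The part of this in the sums was not tested.

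In 4 of the 6 tested probe sets of Malat1, wild-type saline was the highest pool. Its brightest probe set, 1438403_s_at, read 10.25 in Mt-KO saline and 10.74 in heterozygous saline, against 12.04 in wild-type saline. After lead the same probe set read 11.03 in Mt-KO, 10.87 in heterozygous and 11.04 in wild-type pups. The 3 lead pools lay close together, whereas the saline pools spread over 1.79. Relative to the median probe set, Mt-KO saline lay 1.68 (3.21-fold) and heterozygous saline 1.17 (2.25-fold) below wild-type saline, differences of the contrast that chose the gene. Among lead pools, which the choice did not use, the difference was -0.10 for Mt-KO and -0.30 for heterozygous against wild-type, both inside the limit.

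**Figure D1:**
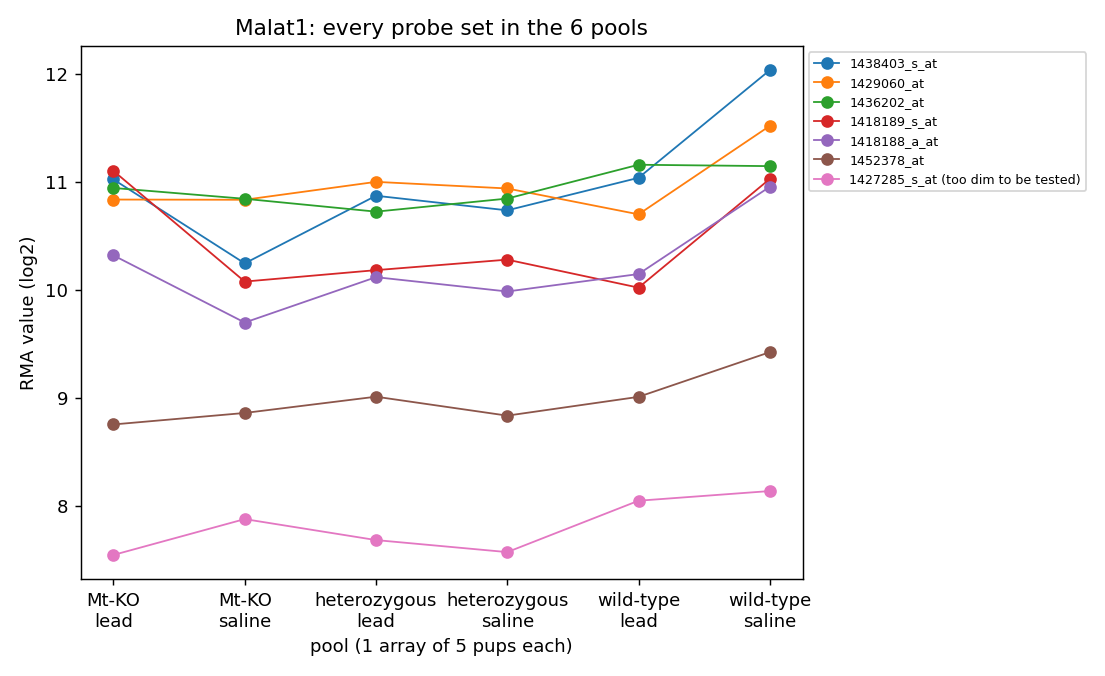
RMA values (log2, y axis) of the 7 Malat1 probe sets (colours) in the 6 pools (x axis), 1 array each. Lines join the values of 1 probe set and imply no order between pools. In 4 of the 6 tested probe sets the highest point is wild-type saline, and 1418189_s_at is as high in Mt-KO lead (11.11) as in wild-type saline (11.03).

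Mt-KO lead was highest in 1418189_s_at and wild-type lead in 1436202_at, and the Malat1 probe sets thus differed among themselves. Probe set 1418188_a_at followed the brightest one closely (Pearson r = 0.992 over the 6 pools), with 9.70 in Mt-KO saline and 9.99 in heterozygous saline, against 10.96 in wild-type saline. Its lead pools read 10.32 in Mt-KO, 10.12 in heterozygous and 10.15 in wild-type pups. Probe set 1418189_s_at read 10.08 in Mt-KO saline and 10.28 in heterozygous saline, against 11.03 in wild-type saline, but it was also high in Mt-KO lead, at 11.11, against 10.19 in heterozygous lead and 10.02 in wild-type lead. For this probe set 2 pools were high and 4 were low. Probe set 1429060_at read 10.84 in Mt-KO saline and 10.94 in heterozygous saline, against 11.52 in wild-type saline, and 10.84 in Mt-KO lead, against 10.70 in wild-type lead. Its Mt-KO saline difference of -0.58 fell just short of the limit. Probe set 1452378_at read 8.86 in Mt-KO saline and 8.84 in heterozygous saline, against 9.43 in wild-type saline, a difference of -0.45 and -0.46. Probe set 1436202_at read 10.85 in both Mt-KO and heterozygous saline, against 11.15 in wild-type saline, and 10.95 in Mt-KO lead and 10.73 in heterozygous lead, against 11.16 in wild-type lead. Here both wild-type pools were high together and the relative saline differences were only -0.19 and -0.17. The untested probe set 1427285_s_at lay between 7.55 and 8.14 in all pools. The 7 probe sets share 1 gene and 1 RNA pool per array, so they are repeated readings, not replicates, and probe sets whose name ends in s_at may also match other transcripts. In the alternative that takes the mean over the tested probe sets of each gene, the differences were -0.83 for Mt-KO saline and -0.63 for heterozygous saline against wild-type saline. These 2 values are not relative to the median probe set used above.

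In all, 3 of the 6 tested Malat1 probe sets lay at least 1.5-fold lower in Mt-KO saline and 3 of 6 in heterozygous saline than in wild-type saline, where 2.29% and 0.591% of all probe sets tested did so. These comparisons chose the gene and nothing is read from the counts. None of the 6 lay 1.5-fold higher in either comparison (background 2.48% and 1.57%). Between Mt-KO saline and heterozygous saline none passed the limit (background 0.2% lower and 0.334% higher), and the brightest differed by -0.50. Among lead pools none lay 1.5-fold lower in Mt-KO or heterozygous than in wild-type pups (background 0.529% and 0.238%), and 1418189_s_at was the 1 probe set to lie 1.5-fold higher in Mt-KO lead than in wild-type lead, by 1.99-fold (background 1.08%). With PLIER its difference was 0.32, inside the limit, and with GC-RMA 0.65, against 0.995 here (log2). None lay higher in heterozygous lead than in wild-type lead by the limit (background 0.353%).

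The lead minus saline difference of 3 Malat1 probe sets was positive in Mt-KO and negative in wild-type pups, with 1 pool on each side and no test. In Mt-KO pups 2 of 6 tested probe sets lay at least 1.5-fold higher in the lead pool than in the saline pool (background 0.162%) and none lower (background 0.219%), by 0.69 for 1438403_s_at and 0.94 for 1418189_s_at, and 1418188_a_at lay 0.54 higher. In heterozygous pups none of the 6 passed the limit (background 0.348% lower and 0.133% higher), with differences from -0.25 to 0.04. In wild-type pups 4 of 6 lay at least 1.5-fold lower in the lead pool than in the saline pool (background 0.906%) and none higher (background 1.88%), by 0.86 for 1438403_s_at, 0.87 for 1418189_s_at, 0.68 for 1429060_at and 0.67 for 1418188_a_at. With PLIER the counts were 1 of 6 in Mt-KO pups, where 1418189_s_at differed by 0.30, and 2 of 6 in wild-type pups, and with GC-RMA they were 2 and 5. The wild-type pair contains the saline pool by which the gene was chosen, and the Mt-KO pair the pool at its other end, so these pairs are not independent of the choice.

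Neat1, which lies near Malat1 on the same chromosome, varied by at most 0.31 over the 6 pools, and by at most 0.45 once each array was centred on its median. Probe set 1442881_at read 11.31 in Mt-KO lead, 11.49 in Mt-KO saline, 11.52 in heterozygous lead, 11.49 in heterozygous saline, 11.62 in wild-type lead and 11.39 in wild-type saline. Relative to the median probe set, its lead minus saline difference was 0.36 in wild-type and -0.27 in Mt-KO pups. Its Mt-KO lead minus wild-type lead difference was -0.39, and all of these were inside the limit. Probe set 1428083_at lay between 9.42 and 9.60. Neither probe set was highest in wild-type saline, and both lay slightly above wild-type saline in the Mt-KO and heterozygous saline pools (0.14 to 0.23 relative to the median probe set). The Mt-KO coefficients were -0.10 (SE 0.17) and -0.02 (SE 0.13) and did not pass in limma (adjusted p = 1 for both). Of 17 tested probe sets for 14 genes around the pair, none passed in any of the 4 fits described below. The background there was 0.0% for lead, 0.4% for Mt-KO, 0.00477% for heterozygous and 2.15% for the lead difference per intact allele. None lay 1.5-fold lower in Mt-KO saline than in wild-type saline (background 2.29%), with a median difference of 0.16. Counts of 0 among 17 lie near these shares, and nothing is read from them. By the limit, 1 lay higher in Mt-KO lead than in wild-type lead (background 1.08%). In wild-type pups, 1 lay higher in the lead pool than in the saline pool (background 1.88%). Of the 17, Ehbp1l1 1416804_at had the highest Mt-KO coefficient, 0.58 (limma adjusted p = 0.0831).

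**Figure D2:**
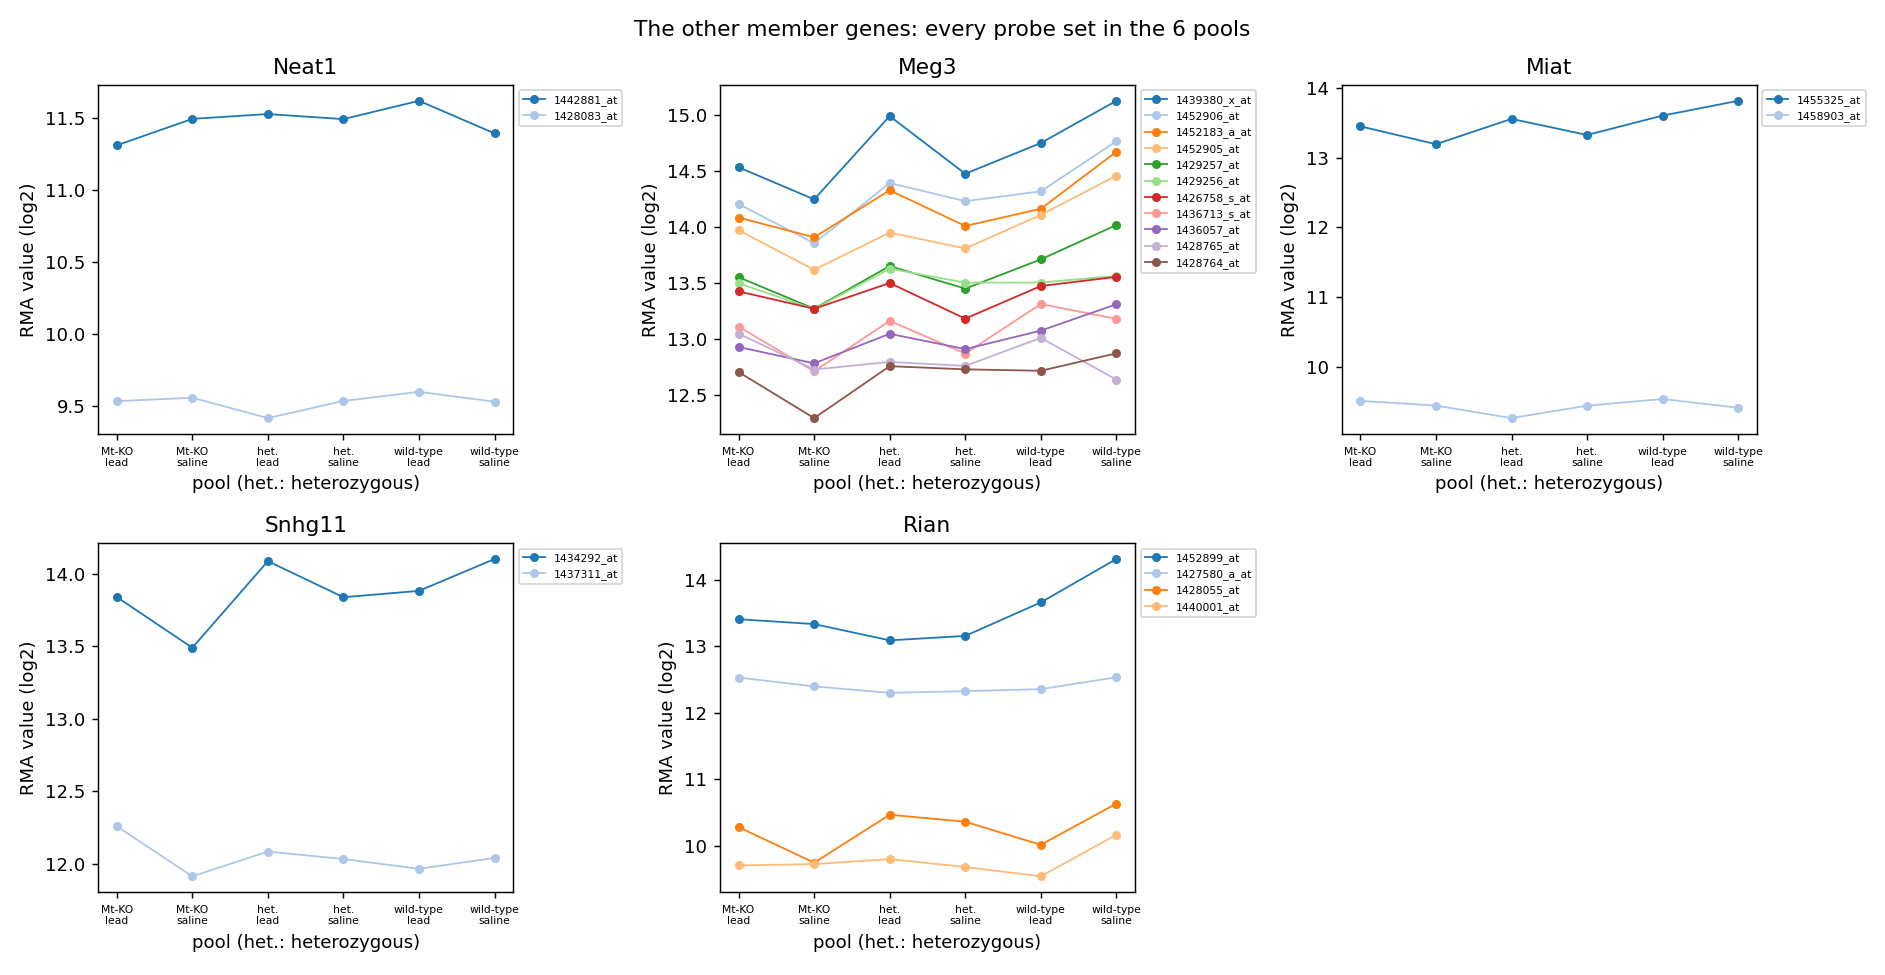
RMA values (log2, y axis) of all probe sets of Neat1, Meg3, Miat, Snhg11 and Rian in the 6 pools (x axis), 1 array each, with lines joining the values of 1 probe set. The y axes differ between panels. The Neat1 lines vary by at most 0.31, the brightest Meg3 and Rian lines end highest in wild-type saline, and Rian 1428055_at is low in Mt-KO saline (9.74).

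Meg3 lay lower in Mt-KO saline than in wild-type saline in 10 of its 11 probe sets. Its brightest, 1439380_x_at, read 14.25 in Mt-KO saline and 14.47 in heterozygous saline, against 15.13 in wild-type saline. After lead it read 14.53 in Mt-KO and 14.99 in heterozygous pups, against 14.75 in wild-type pups, so the heterozygous lead pool was the second highest. Probe set 1452906_at read 13.85 in Mt-KO saline and 14.23 in heterozygous saline, against 14.76 in wild-type saline. Over the 11 probe sets the median relative difference was -0.47 for Mt-KO saline and -0.27 for heterozygous saline against wild-type saline, and -0.20 for Mt-KO lead and -0.11 for heterozygous lead against wild-type lead. For 5 of the 11, Mt-KO saline lay at least 1.5-fold lower (background 2.29%), and for 9 it was the lowest pool, as it was for 24.9% of all probe sets tested. That background rose with brightness, to 45.3% for mean values between 12 and 13, 68.8% between 13 and 14 and 93.3% at 14 and over. In these bands Mt-KO saline was lowest in 1 of 2, 5 of 6 and 3 of 3 Meg3 probe sets. The exception to the lower Mt-KO saline values was 1428765_at, at 12.73 in Mt-KO saline, against 12.64 in wild-type saline, its lowest pool.

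The Meg3 difference is to be read beside that of other probe sets of its brightness, since bright probe sets as a whole lay lower in Mt-KO saline. In RMA as deposited the median relative difference of Mt-KO saline against wild-type saline, over all probe sets tested, was 0.10 for mean values below 10, -0.06 between 11 and 12, -0.17 between 12 and 13, -0.36 between 13 and 14 and -0.62 at 14 and over, where 58.1% of 284 probe sets lay at least 1.5-fold lower. Meg3 has 2, 6 and 3 probe sets in the 3 upper bands, and its median was -0.47. How far Meg3 lay from its bands differed between summaries. With GC-RMA the 3 band medians were -0.19, -0.19 and -0.12, and the Meg3 median was -0.39. With PLIER they were -0.22, -0.45 and -0.70, and the Meg3 median was -0.55. After quantile normalization, which gives the arrays 1 common distribution, they were -0.02, -0.03 and -0.04, and the Meg3 median was -0.14. The number of Meg3 probe sets at least 1.5-fold lower was 5 in RMA and in PLIER, 1 with GC-RMA and 0 after quantile normalization. Over the 5 comparison genes, 7 of 21 probe sets lay at least 1.5-fold lower in Mt-KO saline (Meg3 5, Rian 2), beside the background of 2.29%, and 1 of 21, of Rian, after quantile normalization.

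**Figure D3:**
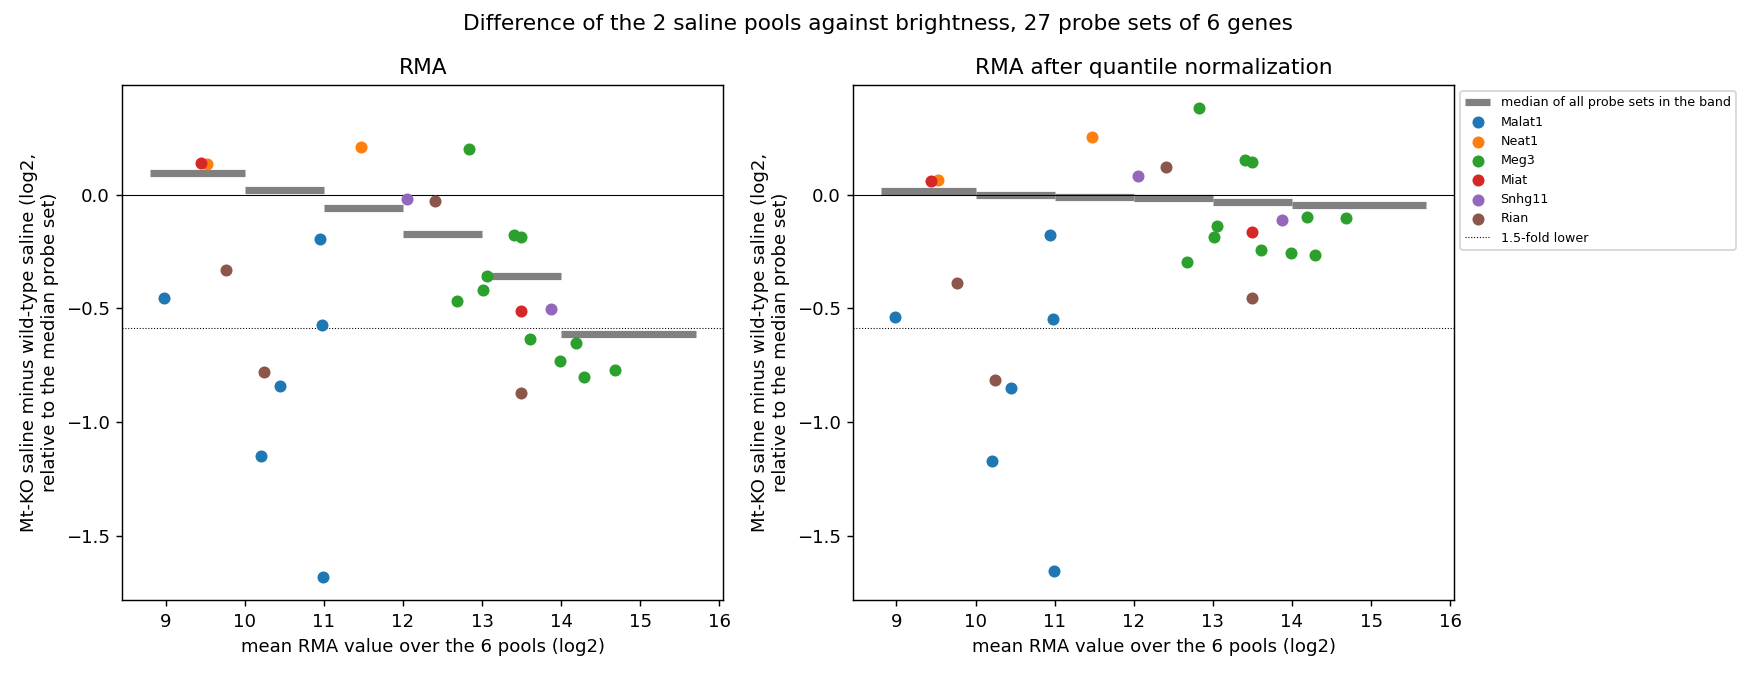
Relative difference of Mt-KO saline minus wild-type saline (log2, y axis) against mean RMA value over the 6 pools (log2, x axis) for the 27 tested probe sets (points, coloured by gene), with RMA as deposited on the left and after quantile normalization on the right. Grey bars are the median of all probe sets in each brightness band and the dotted line is 1.5-fold lower. The grey bar at 14 and over lies at -0.62 on the left and -0.04 on the right, and the Meg3 median at -0.47 and -0.14. Malat1 was chosen by this difference, and its points are shown as a description.

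Rian, the other RNA of the Dlk1-Dio3 domain and a host of small nucleolar RNAs, was highest in wild-type saline in all 4 of its probe sets. The brightest, 1452899_at, read 13.34 in Mt-KO saline and 13.16 in heterozygous saline, against 14.32 in wild-type saline, and 13.41 in Mt-KO lead and 13.09 in heterozygous lead, against 13.66 in wild-type lead. Both wild-type pools lay above all 4 others. Its heterozygous coefficient was -0.87 (SE 0.28, unadjusted p = 0.00799, limma adjusted p = 1) and its Mt-KO coefficient -0.62 (SE 0.28, limma adjusted p = 0.804), so neither passed. Leaving out the wild-type lead array made both pass, at -1.19 (limma adjusted p = 3.0e-05) for heterozygous and -0.95 (limma adjusted p = 0.000123) for Mt-KO, in a fit with 1 residual degree of freedom where 3883 and 7161 of all probe sets passed. Without the wild-type saline array the heterozygous coefficient was -0.54 (limma adjusted p = 0.0152), where 3648 passed.

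With all 6 arrays and RMA as deposited, Rian 1428055_at was the only probe set of the 5 comparison genes to pass a test. It read 10.28 in Mt-KO lead, against 9.74 in Mt-KO saline, 10.46 in heterozygous lead, against 10.36 in heterozygous saline, and 10.01 in wild-type lead, against 10.63 in wild-type saline. The lead pool was thus higher in Mt-KO pups and lower in wild-type pups. Its lead minus saline difference changed by -0.58 for each intact allele (0, 1 or 2) (SE 0.14, limma adjusted p = 0.0046), beside a median of -0.12 over all probe sets tested. It did not pass with PLIER (limma adjusted p = 0.456) or after quantile normalization (-0.49, limma adjusted p = 0.22). No array, Mt-KO saline included, can be left out of this fit. The other 3 Rian probe sets had coefficients of -0.16 to -0.36 and did not pass. Of the 21 tested probe sets of the 5 genes, 1 passed in this fit, against 2.15% of all probe sets (450 of 20975). The spread in this fit comes from 1 residual degree of freedom per probe set, which limma replaced by that typical of the probe set's brightness.

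Miat and Snhg11 each had 1 bright probe set, highest in wild-type saline and lowest in Mt-KO saline, and 1 flat one. Miat 1455325_at read 13.19 in Mt-KO saline and 13.32 in heterozygous saline, against 13.81 in wild-type saline, and 13.45 in Mt-KO lead and 13.55 in heterozygous lead, against 13.60 in wild-type lead. Its relative saline differences were -0.51 and -0.36, beside the median of -0.36 for Mt-KO saline and -0.25 for heterozygous saline in its brightness band. Miat 1458903_at lay between 9.27 and 9.54 in all pools. Snhg11 1434292_at read 13.49 in Mt-KO saline and 13.84 in heterozygous saline, against 14.10 in wild-type saline, with 13.84 in Mt-KO lead and 14.09 in heterozygous lead, against 13.88 in wild-type lead. Its Mt-KO saline pool was the only low one. The relative saline differences of Snhg11 1434292_at were -0.50 and -0.13, in the same brightness band as Miat 1455325_at. Snhg11 1437311_at lay between 11.91 and 12.26.

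With all 6 arrays, the 5 comparison genes gave no further calls across the genotypes and the treatment. An additive limma fit of genotype and treatment over the 6 arrays called 0 of their 21 probe sets for lead (background 0.0%, 0 of 20975, with 476 at an unadjusted p under 0.05), 0 for Mt-KO against wild-type (background 0.4%, 84 of 20975) and 0 for heterozygous against wild-type (background 0.00477%, 1 of 20975). At an unadjusted p under 0.05 the counts were 0, 1 and 1 of the 21, the 1 being Rian 1452899_at in both genotype comparisons. Lead coefficients of the 21 ranged from -0.22 for Rian 1452899_at to 0.27 for Meg3 1436713_s_at. With 1 wild-type array left out, the coefficients moved over the whole array with which of the 2 was kept. The median over all probe sets tested was -0.12 for Mt-KO and -0.12 for heterozygous without the wild-type lead array. Without the wild-type saline array it was 0.10 and 0.12, and without the Mt-KO saline array 0.02 for Mt-KO. These fits leave 1 pool in a genotype, and nothing is read from their calls among the 21.

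**Figure D4:**
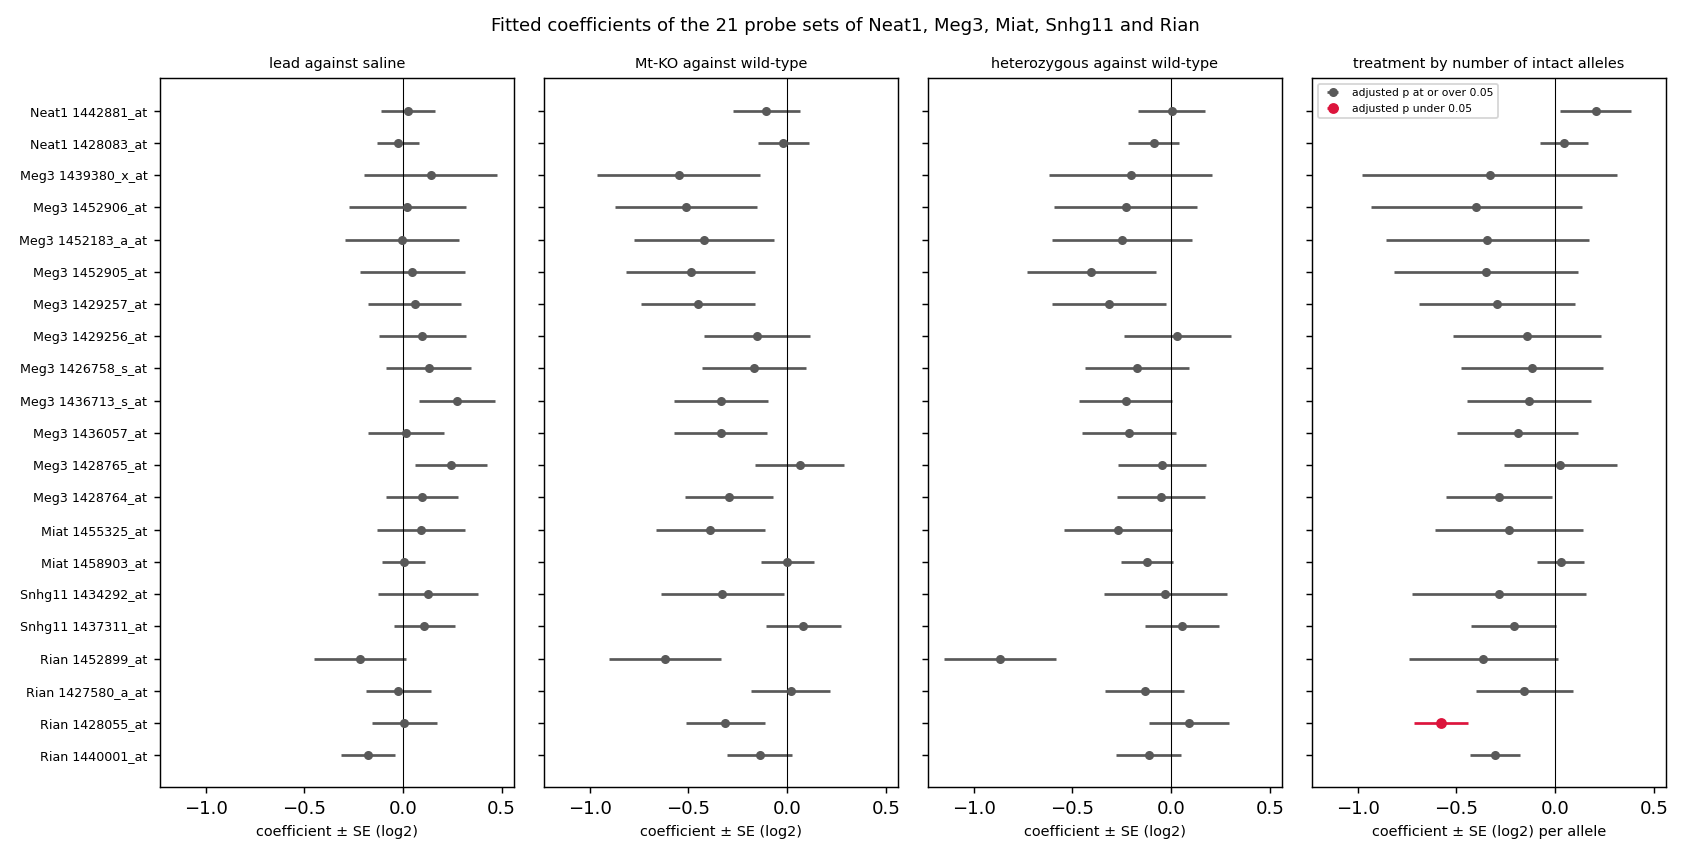
Fitted coefficients (log2, x axis, points) with their standard errors (bars) for the 21 tested probe sets of Neat1, Meg3, Miat, Snhg11 and Rian (rows) in 4 limma comparisons over 6 arrays (panels). Rian 1428055_at in the right panel (-0.58 per allele, red) is the point with an adjusted p under 0.05.

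Among the 5 comparison genes, wild-type saline was the highest pool in 14 of 21 probe sets (66.7%), against 36.4% of all 20975 probe sets tested. That background differed with brightness, from 25.2% of probe sets with mean values below 10 to 63.2% between 13 and 14 and 78.5% at 14 and over. After centring each array on its median the shares were 61.9% of the 21 and 30.1% of all. By gene and before centring, wild-type saline was highest in 8 of 11 Meg3, 4 of 4 Rian, 1 of 2 Miat, 1 of 2 Snhg11 and 0 of 2 Neat1 probe sets.

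Calls among proteins of speckles and paraspeckles, the nuclear bodies of Malat1 and Neat1, were counted beside the background. Of 77 tested probe sets for 24 nuclear speckle proteins, 2 rose in Mt-KO against wild-type brain (background 0.324%) and 0 fell (background 0.0763%), with a median coefficient of -0.02, the same as over all probe sets. These were Srsf2 1452439_s_at, an SR splicing factor used as a speckle marker, with 10.96 and 11.07 in the Mt-KO pools, against 10.01 and 10.11 in the wild-type pools (0.95, SE 0.14, limma adjusted p = 0.00565), and Srsf1 1452430_s_at, with 11.58 and 11.31 in the Mt-KO pools, against 10.91 and 10.48 in the wild-type pools (0.75, SE 0.15, limma adjusted p = 0.0476). In each pair of values the lead pool is given first. Neither passed with GC-RMA (limma adjusted p = 0.211 and 0.407) or after quantile normalization (0.126 and 0.156), nor without either of the Mt-KO arrays, and Srsf1 did not pass without either of the heterozygous arrays (0.0975 and 0.11). The Srsf2 and Srsf1 calls were also lost with no trend (limma adjusted p = 0.151 and 0.241) and with no filter (0.0873 and 0.197). After centring the Srsf1 call was lost (0.054) and that of Srsf2 was not, and with PLIER both passed. The other probe sets of both genes did not pass, with coefficients of 0.11 to 0.41 for Srsf2 and -0.20 to 0.42 for Srsf1. Of 46 probe sets for 17 paraspeckle proteins, 0 passed for Mt-KO, heterozygous or lead, and 2 had a negative interaction (background 1.75%), Zc3h6 1428682_at (-0.47 per allele, limma adjusted p = 0.00282) and Taf15 1438130_at (-0.43 per allele, limma adjusted p = 0.037). Of 15 probe sets for the 4 splicing factors known to bind Miat, among them Qk and Celf1, 0 passed in any of the 4 fits (background at most 2.15%). Of 10 probe sets for 5 synapse genes that have been studied with Malat1, Dlg4 1419581_at, for the postsynaptic scaffold PSD-95, rose in Mt-KO against wild-type brain (0.86, SE 0.14, limma adjusted p = 0.00958, and 0.481 with GC-RMA; background 0.324%), while the brighter Dlg4 1419580_at had a coefficient of -0.09. The Dlg4 call was also lost after quantile normalization (limma adjusted p = 0.136), after centring (0.0613), with no trend (0.185), with no filter (0.104), with PLIER at a pseudocount of 16 (0.0511) and without the Mt-KO lead (0.174) or Mt-KO saline array (0.0697). Nlgn1 1437160_at, a synaptic adhesion protein, had an interaction of -0.45 per allele (limma adjusted p = 0.0181). Of 12 probe sets for the 5 neuron markers, 1 passed in this fit, Syt1 1438282_at, for the synaptic vesicle protein synaptotagmin 1 (-0.48 per allele, limma adjusted p = 0.00681), while the other 2 Syt1 probe sets had coefficients of 0.11 and -0.25. Syt1 1438282_at read 9.61 in Mt-KO lead, against 9.31 in Mt-KO saline, and 9.27 in wild-type lead, against 9.94 in wild-type saline.

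Other lncRNAs gave calls in the interaction fit only, a difference between fits that was not itself tested. Of 57 tested probe sets for 34 further lncRNA genes, 0 passed for Mt-KO, heterozygous or lead and 4 had a negative interaction (background 1.75%). These were Ftx 1438838_at, a neighbour of Xist (-0.59 per allele, limma adjusted p = 0.000512), Gt(ROSA)26Sor 1452239_at (-0.47, limma adjusted p = 0.0118), the imprinted antisense RNA Kcnq1ot1 1442029_at (-0.44, limma adjusted p = 0.0276) and C130071C03Rik 1453791_at (-0.41, limma adjusted p = 0.03). Of the 8 interaction calls in these lists (these 4, Zc3h6, Taf15, Nlgn1 and Syt1), 0 passed with PLIER or after quantile normalization, where no probe set on the array did, 1 with GC-RMA (C130071C03Rik, limma adjusted p = 0.0123), 1 with no trend (Ftx) and 3 after centring (Ftx, Gt(ROSA)26Sor and Syt1). Ftx read 9.81 in Mt-KO lead, against 9.43 in Mt-KO saline, and 9.25 in wild-type lead, against 10.05 in wild-type saline. Of the 57, 4 lay 1.5-fold lower in Mt-KO saline than in wild-type saline (background 2.29%), by 1.03 for C130071C03Rik 1453791_at, 0.83 for Snhg14 1436964_at, 0.69 for Norad 1428286_at and 0.59 for Kcnq1ot1 1442029_at, and the median was -0.09. In the Dlk1-Dio3 domain, 0 of 7 probe sets for 4 other genes passed in any fit (background at most 2.15%). The median difference of Mt-KO saline against wild-type saline over these 7 was 0.003. Within them, the microRNA host Mirg lay 0.52 and 0.25 lower in Mt-KO saline than in wild-type saline in its 2 probe sets, both inside the limit.

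The genes most like Malat1 1438403_s_at over the 6 pools, among 147 genes with a range at least 0.5 times as wide, were Slc9a7 (Pearson r = 0.978), Crebbp (0.973), Megf11 (0.93), Ide (0.913), Pcdh17 (0.91), Dhx36 (0.892), Pabpn1 (0.888), Ssh1 (0.887), Atp2b1 (0.856) and Mapre2 (0.84). These values rest on 6 pools, of which wild-type saline is the high one, and were chosen as the highest. Crebbp, which encodes a histone acetyltransferase, read 10.75 in Mt-KO saline and 11.11 in heterozygous saline, against 11.92 in wild-type saline, and 11.38 in Mt-KO lead and 11.29 in heterozygous lead, against 11.12 in wild-type lead. Among the comparison genes, r ran from -0.26 to 0.96 for Meg3 and from 0.40 to 0.83 for Rian, and was 0.90 and -0.10 for the Miat, 0.74 and 0.06 for the Snhg11 and -0.32 and -0.14 for the Neat1 probe sets.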

How the data were processed

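Whole-brain RNA of 6 pools of 5 pups was measured, 1 array each. The 18 columns of values hold those 6 arrays in 3 summaries, which are not replicates. The submitters' processing notes name Partek, RMA, GCRMA and PLIER. Program versions and options are not given in the sources used here. RMA and GC-RMA were deposited by the authors as log2 values. They deposited PLIER as linear intensities, and these entered as log2(value + 16). RMA as deposited was the main setting. Per the labels' protocols the labelling kit is one for whole-transcript arrays, whereas the identifiers are those of a 3' array.

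Of 45101 probe sets, the 34958 with 1 gene symbol in the platform annotation were kept, and 932 with several and 9211 with none were left out. The GRCm38.p6 gene table holds the gene identifier of 34754. The upper 60% by mean RMA value (20975 probe sets, 8.92 or more) were tested, each on its own, in limma 3.58.1 under R 4.3.3 with lmFit and trended eBayes. Tests were two-sided, adjusted by Benjamini-Hochberg over all of them, with a threshold of 0.05. The additive fit of genotype and treatment leaves 2 residual degrees of freedom, and genotypes and treatments stand in as each other's replicates, so p-values rest on departures from that model. The fit of the lead difference per intact allele keeps 3 genotype levels and leaves 1. The fits were tested on simulated data. Precision is limited by the number of arrays.

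The named genes are the 6 members with every probe set, the 10 genes most like Malat1 1438403_s_at and, of each list, probe sets that passed or had the largest Mt-KO coefficients. Members and lists were chosen with earlier results of these data known. The alternatives were GC-RMA, PLIER with 2 pseudocounts, quantile normalization, centring, 1 probe set per gene, the mean per gene, other brightness filters, no trend, no genotype block, a threshold of 0.10, a 2-fold limit, leaving out each array and, added after seeing the data, a linear allele term. Cell type markers were summed per pool as linear intensities, so the brightest probe sets weigh most.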

Additional observations from a re-analysis of the deposited data

Results flagged for a closer look

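In Malat1 1438403_s_at the lead pool lay above the saline pool in Mt-KO pups (0.69, log2, relative to the median probe set) and below it in wild-type pups (-0.86). Malat1 1418189_s_at did the same, with 0.94 in Mt-KO and -0.87 in wild-type pups. With PLIER the values of 1418189_s_at were 0.30 and -0.64, and those of 1438403_s_at 0.71 and -0.39. Each value compares 1 pool with 1 pool, and the difference between genotypes was not tested, because these saline pools chose the gene. The Gapdh 3' minus 5' difference, a sign of RNA quality, was 0.54 in Mt-KO saline and 1.19 in wild-type saline, and that of Actb 0.37 and 0.59. Those of Tfrc (1.01 and 0.91) and Pcx (1.38 and 1.33) went the other way. The Y-linked Eif2s3y was 6.50 in Mt-KO saline, against 9.45 to 11.16 in the other 5 pools. The part of these readings in the Malat1 values was not tested.

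Rian 1428055_at had lead differences that changed with the number of intact alleles, by -0.58 per allele (limma adjusted p = 0.0046), beside a median of -0.12 over all probe sets tested. The call was lost with PLIER and after quantile normalization, as given above. It also rests on both Mt-KO arrays and the wild-type saline array, whose sex-linked RNA and Gapdh readings are given above, and their part was not tested. The lead minus saline difference of Rian 1428055_at was 0.45 in Mt-KO, -0.03 in heterozygous and -0.48 in wild-type pups, relative to the median probe set.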

How the results depend on the processing

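No paired analysis was possible because the labels carry no replicate numbers and each combination is 1 pool. With 1 array per combination, the counts of calls over all probe sets moved widely. For lead, where the main count was 0, PLIER gave 70 and 69 calls (pseudocounts 1 and 16), the brightest probe set per gene 8 and the upper 40% 17. For heterozygous against wild-type, where it was 1, PLIER gave 60 and 54, the upper 40% 21 and the brightest probe set 2, while GC-RMA, centring, the mean per gene, no filter, no trend and quantile normalization gave 0. For Mt-KO against wild-type, where it was 84, PLIER gave 285 and 282, the upper 40% 173, the 0.10 threshold 170, the brightest probe set 30, centring 27, the mean per gene 4, GC-RMA 2, no trend 2, no filter 1 and quantile normalization 1. Leaving out 1 array gave 4 to 3972 calls for lead, 7 to 3883 for heterozygous and 37 to 7161 for Mt-KO, the highest of each without the wild-type lead array. For the interaction, where it was 450, the calls were 1557 with no filter, 1211 with the linear allele term, 1079 with GC-RMA, 1012 after centring, 714 at 0.10, 231 with the mean per gene, 156 with the brightest probe set, 152 and 150 with PLIER, 122 with no trend, 34 in the upper 40% and 0 after quantile normalization (3244 at an unadjusted p under 0.05). No array could be left out of that fit, since no residual degree of freedom remains. The cause was not tested for any of these.

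For Malat1 1438403_s_at every value past the limit kept its direction. Mt-KO saline minus wild-type saline was -2.22 with GC-RMA and -0.83 with the mean per gene, against -1.68. Heterozygous saline minus wild-type saline was -0.76 with PLIER (-0.758 and -0.762) and -0.63 with the mean per gene, against -1.17. Wild-type lead minus wild-type saline was -0.39 with PLIER, against -0.86. At a 2-fold limit 2 of the Malat1 probe sets passed in Mt-KO saline and 1 in heterozygous saline, against 3 each at 1.5-fold. Among 309 values of single member probe sets under the alternatives, 274 kept their direction and side of the threshold and 24 changed sign, none of them past the threshold. For Neat1 1442881_at the heterozygous coefficient (0.003) was -0.02 with PLIER, -0.018 after centring, -0.043 with the mean per gene and -0.008 after quantile normalization, and -0.146 to 0.153 with 1 array left out. Its lead coefficient (0.026) was -0.01 after quantile normalization and -0.074 to 0.13 with 1 array left out, and its Mt-KO coefficient (-0.104) ran from -0.261 to 0.053. For Meg3 1439380_x_at the heterozygous coefficient (-0.205) ran from -0.594 to 0.183 and the lead coefficient (0.141) from -0.045 to 0.4. For Miat 1455325_at the lead coefficient (0.091) was -0.016 with GC-RMA and the interaction (-0.234) 0.002 after quantile normalization. For Snhg11 1434292_at the heterozygous coefficient (-0.029) was 0.013 with the mean per gene, 0.065 after quantile normalization and -0.288 to 0.23 with 1 array left out. For Rian 1452899_at the lead coefficient (-0.216) ran from -0.36 to 0.003. Values of Meg3 1439380_x_at, Miat 1455325_at, Snhg11 1434292_at and Rian 1452899_at that newly passed did so without a wild-type array, and Neat1 1442881_at newly passed in the interaction after centring (0.31, limma adjusted p = 0.027). Of 111 values of the list probe sets that passed, 44 still passed and 67 did not, all with the same sign.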

Other observations

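Markers of other cell types varied between pools beside the values above, and their part was not tested. Sums of marker intensities weigh bright probe sets most, and those as a whole lay lower in Mt-KO saline than in wild-type saline. The summed intensity of the oligodendrocyte markers ran from 47200 in Mt-KO saline to 88100 in heterozygous lead, of the astrocyte markers from 44500 to 57500, of the microglia markers from 14600 to 17700, of the endothelium markers from 8050 to 9610, and of the choroid plexus markers from 73100 in Mt-KO saline to 135000 in heterozygous lead. Pituitary markers summed to 11400 in heterozygous lead and 2370 to 2800 elsewhere. Blood markers lay between 2420 and 3120 and muscle and skin markers between 3280 and 3620.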
